A study of Homo sapiens with 2 samples.

Results

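The 10 genes HSPA5, DDIT3, ATF4, XBP1, HERPUD1, DNAJB9, TRIB3, ASNS, CHAC1 and SESN2 belong to the cell's response to endoplasmic reticulum (ER) stress and to a shortage of amino acids. They were taken by symbol from the 56638 genes of the deposited RNA-seq tables. The rule itself uses no measured value, but the genes, and the related gene lists below, were chosen with earlier results of these data known. All 10 were among the 17545 genes with at least 10 reads summed over both libraries, which are called the genes tested here. The cells were TFK1, an established human cholangiocarcinoma line, and the labels list no treatment for them. One library, T-shMBD2, came from cells with a knockdown of MBD2, a protein that binds methylated CpG sites. The other, T-shNC, came from negative control cells. The short hairpin RNAs were delivered by lentivirus in a single cell line. Each condition had 1 library, so no difference has a replicate check, no p-value is given, and a difference between the libraries cannot be told apart from one between any 2 cultures.

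When unfolded proteins build up in the ER, sensors in its membrane start the unfolded protein response. The sensor IRE1 splices the XBP1 mRNA, the sensor ATF6 is cut into a transcription factor, and the kinase PERK phosphorylates the initiation factor eIF2alpha. The kinase GCN2 acts on the same factor when amino acids are scarce. Phosphorylated eIF2alpha slows most translation but favors that of ATF4, a transcription factor that turns on genes for amino acid synthesis and uptake and, with CHOP (the product of DDIT3), stress genes such as TRIB3 and CHAC1. ATF6 and spliced XBP1 turn on chaperones such as HSPA5 (BiP) and genes that clear misfolded proteins. ATF4 protein and XBP1 splicing are set largely after transcription, and neither can be read from counts per gene.

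The promoters of several of these genes hold short sequences that are known binding elements of these factors. The stretches around them are shown because HSPA5 and XBP1, which hold the same element, differed in opposite directions. They are taken from RefSeq (GRCh38.p14), which gave 16 promoters for the 10 genes, each running from 250 bases before a start site to 50 after it. Both strands were searched for 4 elements. The ER stress response element (ERSE) is CCAAT, any 9 bases, CCACG. ERSE-II is ATTGG, any base, CCACG. The core of the unfolded protein response element (UPRE) is TGACGTGG, and the C/EBP-ATF response element, bound by ATF4 with C/EBP factors, is TGATGNAA. The ERSE, ERSE-II and UPRE core all hold CCACG on 1 strand, but no match overlapped another. Each line gives at most 30 bases, 5′ to 3′ on the gene's strand, with the matched element in capitals.
HSPA5, ERSE, chr9:125241386-125241414, minus strand: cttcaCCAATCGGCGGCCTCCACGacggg
XBP1, ERSE, chr22:28800598-28800626, minus strand: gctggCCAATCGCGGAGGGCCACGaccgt
HERPUD1, ERSE-II, chr16:56932016-56932044, plus strand: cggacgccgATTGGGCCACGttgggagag
HERPUD1, C/EBP-ATF element on the other strand, chr16:56931955-56931984, plus strand: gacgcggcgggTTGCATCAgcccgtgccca
ASNS, C/EBP-ATF element, chr7:97872458-97872487, minus strand: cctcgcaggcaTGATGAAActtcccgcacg
CHAC1, C/EBP-ATF element on the other strand, chr15:40953251-40953280, plus strand: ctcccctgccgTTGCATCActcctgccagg

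Counted from the RefSeq start site, with -1 the base just before it, the ERSE lay at -66 to -48 in HSPA5 and at -52 to -34 in XBP1. The ERSE-II of HERPUD1 lay at -117 to -107, and its C/EBP-ATF element at -176 to -169. The C/EBP-ATF element lay at -68 to -61 in ASNS and at -209 to -202 in CHAC1. Of all 35116 promoters in the table, 0.0769% held the ERSE, 0.0541% the ERSE-II, 0.729% the UPRE core and 3.62% the C/EBP-ATF element. The windows of DDIT3, ATF4, DNAJB9, TRIB3 and SESN2 held none of the 4 letter strings. In GENCODE 29 the stretches of ASNS and CHAC1 fall in the first exon of transcripts that start further upstream, and the other 4 stretches lie upstream of the gene. A match is a description of the letters and not a measured binding site.

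The libraries held 14728814 (T-shMBD2) and 14467406 (T-shNC) counted reads. MBD2 had 365 and 1013 counts, a log2 fold change of -1.48 (95% counting interval -1.66 to -1.31), which goes with its label. All fold changes are T-shMBD2 over T-shNC after TMM scaling. The intervals come from how a gene's reads divided between the libraries and cover counting error only. The 7 markers of biliary epithelium all had at least 10 counts in both libraries, with summed counts of 68054 and 84316. Most of these were from KRT8, with 49193 and 62047, while EPCAM had 111 and 162 and KRT19 had 119 and 70. KRT19 alone had more counts in T-shMBD2. All 6 leukocyte, 3 endothelial and 3 hepatocyte markers had 3 counts or fewer in both, as did 3 of 5 fibroblast markers, whose highest count was 6.

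The 10 genes differed little between the libraries. Their median log2 fold change was -0.13, beside -0.0082 over all genes tested, and 3 genes were higher and 7 lower in T-shMBD2. None reached a log2 fold change of 1 or -1, which 5.48% and 5.07% of all genes tested reached. None reached 0.5 upward, where 12.8% of all genes tested lay, and only CHAC1 lay at or below -0.5, where 13.2% lay. The counting interval was wholly above 0 for HSPA5 and, only just, for DNAJB9. It was wholly below 0 for ATF4, XBP1, HERPUD1 and ASNS. Over all genes tested, 19.7% had an interval wholly above 0 and 18.4% wholly below. These shares depend on depth. Among the 5864 genes with at least 1000 counts, a subset chosen after the values were seen, 30.4% had an interval wholly above 0 and 26.8% wholly below, and 3.63% and 2.95% reached 0.5 and -0.5. Of the 10 genes, 6 are that deep, and their intervals lay above 0 in 1 and below 0 in 4.

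**Figure D1:**
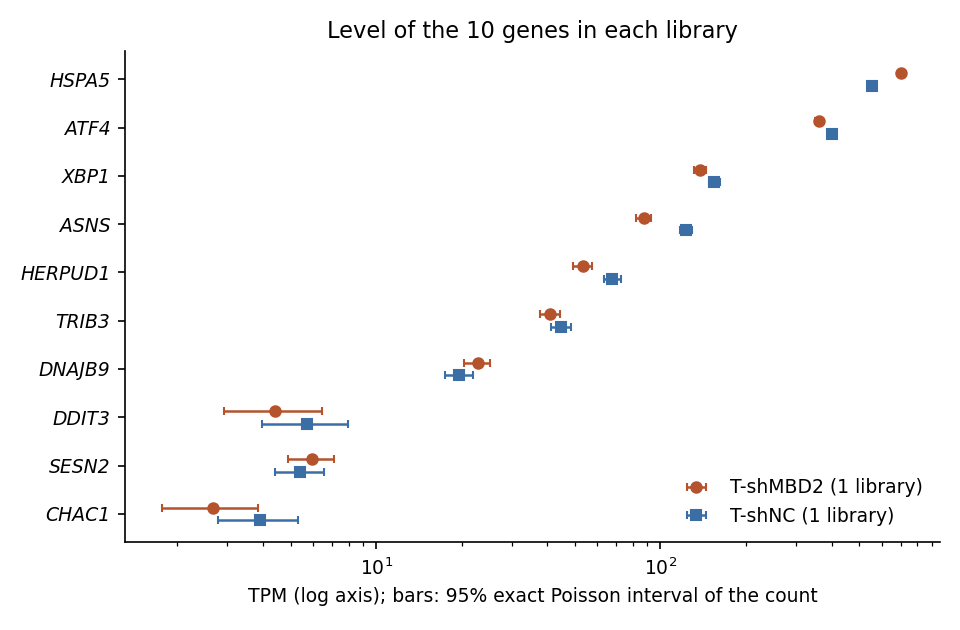
TPM of each of the 10 genes in the T-shMBD2 (circles) and T-shNC (squares) library on a log axis, with bars for the 95% exact Poisson interval of the count. The genes run from HSPA5, at 700 and 555 TPM, down to CHAC1, at 2.66 and 3.90 TPM, and the marks of the 2 libraries lie close together in every row.

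Levels were compared between genes in TPM, which is per gene length. In T-shNC the order from the highest was HSPA5, ATF4, XBP1, ASNS, HERPUD1, TRIB3, DNAJB9, DDIT3, SESN2 and CHAC1. HSPA5 ranked 164th and ATF4 252nd of the genes tested, while DDIT3 ranked 11150th and CHAC1 12250th. The order in T-shMBD2 was the same except that SESN2 lay above DDIT3. In T-shNC the counting intervals of DDIT3 (3.96 to 7.99 TPM), SESN2 (4.42 to 6.55 TPM) and CHAC1 (2.78 to 5.31 TPM) overlapped, so their order is within counting error. The other neighbors did not overlap.

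HSPA5 (ENSG00000044574, chr9:125234853-125241330 in GENCODE 29, GRCh38) encodes BiP, the Hsp70 chaperone of the ER lumen that holds the stress sensors inactive. It had 15643 counts in T-shMBD2 and 12085 in T-shNC, or 700 and 555 TPM. It was the most abundant of the 10 genes and the furthest above 0, at 1.29-fold (log2 fold change 0.36, interval 0.33 to 0.40). Its fold change lay at the 93.6th percentile of the genes with at least 1000 counts.

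DNAJB9 (ENSG00000128590, chr7:108569568-108574850), a J-domain co-chaperone of BiP, had 353 counts in T-shMBD2 and 297 in T-shNC, or 22.7 and 19.6 TPM. Its log2 fold change was 0.24, with an interval of 0.014 to 0.47 that nearly reaches 0. The choice of scaling moved values by up to 0.017 log2, so whether this interval holds 0 depends on the scaling. Exons of THAP5 and PNPLA8 on the opposite strand overlap it, and the strand setting of the counting is not given in the sources used here, so its count is uncertain. Both overlapping genes were slightly lower in T-shMBD2, with log2 fold changes of -0.16 and -0.065.

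HERPUD1 (ENSG00000051108, chr16:56932048-56944863), an ER membrane protein that takes part in the degradation of misfolded proteins, had 671 counts in T-shMBD2 and 831 in T-shNC, or 53.4 and 67.8 TPM. This is a log2 fold change of -0.32 (interval -0.47 to -0.17), at the 7.86th percentile of the genes with at least 1000 counts. HERPUD1, with both an ERSE-II and a C/EBP-ATF element, thus differed in the opposite direction to HSPA5.

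Of the transcription factors, ATF4 (ENSG00000128272, chr22:39519695-39522685), the main factor translated under eIF2alpha phosphorylation, had 4161 counts in T-shMBD2 and 4516 in T-shNC, or 360 and 401 TPM. Its log2 fold change was -0.13 (interval -0.19 to -0.066). XBP1 (ENSG00000100219, chr22:28794555-28800597), whose spliced mRNA encodes the active factor, had 1713 and 1872 counts, or 138 and 155 TPM. The log2 fold change of XBP1 was -0.14 (interval -0.23 to -0.042). Both were abundant and lower by under 10% in T-shMBD2, at the 25.3rd and 23.7th percentile of the genes with at least 1000 counts. XBP1 carries an ERSE like HSPA5, yet lay on the other side of 0.

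DDIT3 (ENSG00000175197, chr12:57516588-57521737), which encodes the pro-apoptotic factor CHOP, had 27 counts in T-shMBD2 and 34 in T-shNC, or 4.43 and 5.72 TPM. Its log2 fold change of -0.34 had an interval of -1.13 to 0.43, so a difference was not detectable at this depth. Exons of MARS and MBD6 on the opposite strand overlap DDIT3, as do exons of AC022506.1 on the same strand, which is not among the deposited genes. With 2573 and 2692 counts, MARS was far more abundant, so the few DDIT3 reads are uncertain.

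ASNS (ENSG00000070669, chr7:97852118-97872542), which makes asparagine from aspartate and glutamine and is a classic ATF4 target, had 1175 counts in T-shMBD2 and 1618 in T-shNC, or 87.2 and 123 TPM. Its log2 fold change was -0.47 (interval -0.58 to -0.36), a 0.722-fold level. Among the 10 genes this was the difference furthest below 0 whose interval did not hold 0. It lay at the 3.56th percentile of the genes with at least 1000 counts, and at percentile 14.1 of all genes tested, where many genes have few reads. Exons of AC079781.5 on the same strand overlap ASNS, and AC079781.5 is not among the deposited genes.

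CHAC1 (ENSG00000128965, chr15:40952962-40956519), which degrades glutathione, had 28 counts in T-shMBD2 and 40 in T-shNC, or 2.66 and 3.90 TPM. Its log2 fold change of -0.52 was the lowest of the 10, but its interval, -1.27 to 0.21, held 0. TRIB3 (ENSG00000101255, chr20:362835-397559), a pseudokinase that binds ATF4 and AKT, had 584 and 622 counts, or 40.9 and 44.7 TPM, with a log2 fold change of -0.10 (interval -0.27 to 0.065). SESN2 (ENSG00000130766, chr1:28259527-28282491), a leucine sensor that holds back mTORC1, had 117 and 104 counts, or 5.93 and 5.40 TPM, with a log2 fold change of 0.16 (interval -0.23 to 0.56). For these 3 genes a difference was not detectable at this depth.

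**Figure D2:**
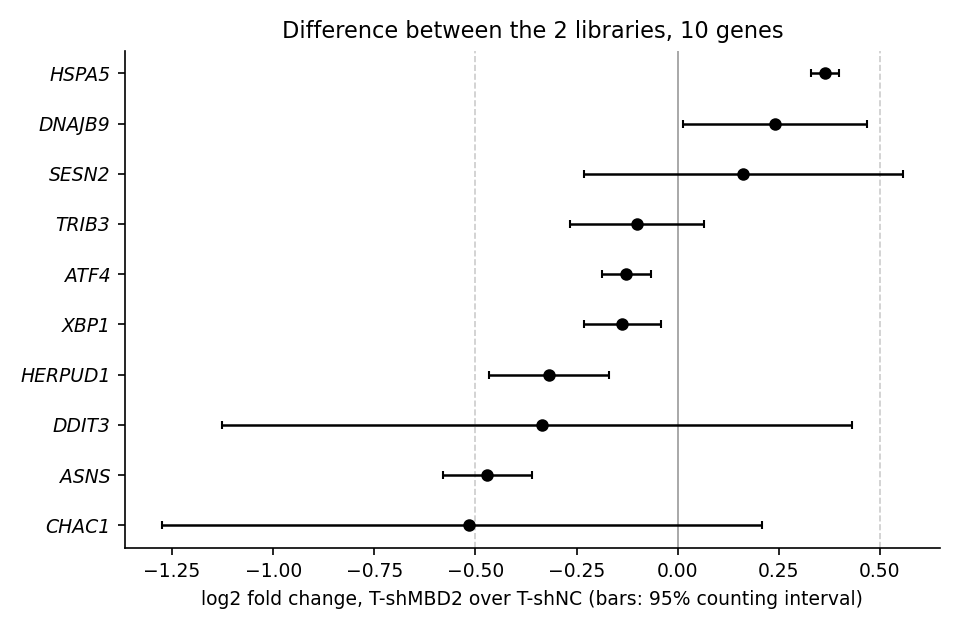
Log2 fold change of the 10 genes, T-shMBD2 over T-shNC, with bars for the 95% counting interval, a solid line at 0 and dashed lines at 0.5 and -0.5. HSPA5 at 0.36 and DNAJB9 at 0.24 lie above 0, ASNS at -0.47 and HERPUD1 at -0.32 lie below it, and the wide bars of DDIT3 and CHAC1 cross it.

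**Figure D3:**
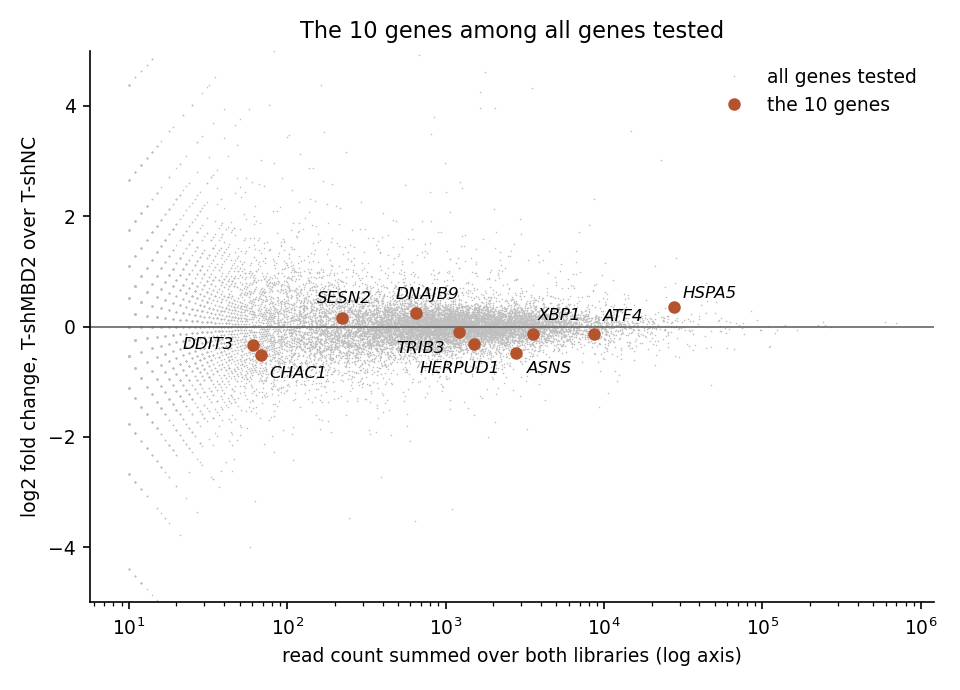
Log2 fold change, T-shMBD2 over T-shNC, against the read count summed over both libraries on a log axis, for all genes tested (grey) and the 10 genes (orange), with 24 genes outside the plotted range of -5 to 5. The grey cloud narrows as counts grow, so that HSPA5 and ASNS lie near its upper and lower edge while CHAC1 and DDIT3 lie well inside it.

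The rest of the pathway was read from 12 gene lists, some of which share genes. Among ER chaperones and folding enzymes, 19 of 20 genes were higher in T-shMBD2, as HSPA5 and DNAJB9 were, and the median log2 fold change was 0.30. The interval lay wholly above 0 in 16 and wholly below in 0. Among the 16 that had at least 1000 counts, it lay above 0 in 14, where 30.4% of all genes that deep did. CALR, a lectin chaperone for glycoproteins, had 10823 counts in T-shMBD2 and 7681 in T-shNC (log2 fold change 0.49, interval 0.44 to 0.53). HYOU1, the exchange factor of BiP, had 2403 and 1795 counts (0.41, interval 0.32 to 0.50), and the cyclophilin PPIB had 1965 and 1422 (0.46, interval 0.36 to 0.56). CRELD2 had 376 and 243 counts (0.62, interval 0.38 to 0.86). TXNDC5, a protein disulfide isomerase, had 81 and 30 counts (1.41, interval 0.80 to 2.08) and was the only one of the 20 past a log2 fold change of 1. The exception in direction was DNAJC10, at -0.058 (interval -0.13 to 0.011), which is named after its value was seen.

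Of the 19 chaperone genes with a RefSeq promoter, 6 held the ERSE that HSPA5 and XBP1 carry (CALR, CANX, CRELD2, ERO1LB, HSP90B1 and PDIA6) and 2 held the ERSE-II that HERPUD1 carries (HYOU1 and SDF2L1). All 8 were higher in T-shMBD2, with log2 fold changes from 0.23 to 0.62, and the interval of SDF2L1 held 0. Since 19 of the 20 genes of the chaperone list were higher, with or without an element, this does not set the carriers apart. In the other 11 lists no gene that was tested and matched to a promoter held either element. Carriers outside that list went both ways. Over the 11896 genes tested and matched to a promoter, 50.3% were higher and the median log2 fold change was 0.0026. Of these genes, 16 carried the ERSE, 12 of them higher, with a median of 0.11. The ERSE-II was carried by 13, 8 of them higher, with a median of 0.044. These carriers include the 8 genes of the chaperone list. Among the ERSE carriers, XBP1 and SYNPO stood at -0.14 and -0.18, and SERP1 and EIF2A at 0.053 and 0.048. Among the ERSE-II carriers, HERPUD1, SHCBP1 and PLS3 stood at -0.32, -0.13 and -0.11. GYS1 and NAV2 stood at 0.34 and 0.24, and the interval of NAV2 held 0. Apart from XBP1 and HERPUD1, these carriers were named after their values were seen. Only 67.8% of the genes tested matched a promoter, so these shares cover the matched genes only. The ERSE and ERSE-II carriers are few, and whether an element goes with the direction was not tested.

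ER import and export, which covers the Sec61 channel, the translocon-associated proteins, signal peptidase and the COPII coat, had 13 of 15 genes higher in T-shMBD2, with a median of 0.19. The interval lay above 0 in 11 and below 0 in 1. All 15 genes had at least 1000 counts summed over both libraries, where 30.4% and 26.8% of all genes that deep had such intervals. SEC24D, a COPII cargo adaptor, had 707 and 502 counts (log2 fold change 0.48, interval 0.32 to 0.65). SEC61A1, the pore of the channel, had 3236 and 2514 (0.36, interval 0.28 to 0.43). SEC23B and SSR1 stood at 0.31 and 0.27.

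ER-associated degradation, the process of HERPUD1, had a median of 0.032, near the -0.0082 of all genes tested. Of its 18 genes 17 were tested, and 12 were higher and 5 lower in T-shMBD2, where 48.9% of all genes tested were higher. Among the 16 with at least 1000 counts, the interval lay above 0 in 4 and below 0 in 2. The shares of all genes that deep were 30.4% and 26.8%. DERL3, with 7 counts and 0, was too low to be tested. EDEM1, a lectin-like protein that marks glycoproteins for disposal, had 1047 counts in T-shMBD2 and 1324 in T-shNC (log2 fold change -0.35, interval -0.47 to -0.23). DERL1 and UFD1L stood at 0.19 each and SELK at 0.17, with an interval for SELK of -0.11 to 0.46.

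The sensors and their processing enzymes had a median of 0.056, with 7 of 10 tested genes higher, 4 intervals above 0 and 1 below. Among the 7 with at least 1000 counts, 2 intervals lay above 0 and 1 below, near the 30.4% and 26.8% of all genes that deep. ERN1, which encodes IRE1, had 521 and 441 counts (log2 fold change 0.23, interval 0.046 to 0.42). CREB3 stood at 0.32 (interval 0.18 to 0.47), the ligase RTCB, which joins the cut XBP1 mRNA, at 0.13, and the protease MBTPS2 at -0.090 (interval -0.19 to 0.0087). CREB3L1 had 13 counts in T-shMBD2 and 2 in T-shNC, a difference with a counting interval of 0.55 to 5.88 on the log2 scale. ATF6 and EIF2AK3 (PERK), added after their values were seen, stood at -0.040 and 0.075 with intervals that held 0.

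The eIF2alpha kinases, phosphatase subunits and eIF2B subunits had a median of 0.089, with 11 of 14 genes higher, 6 intervals above 0 and 1 below. Among the 11 with at least 1000 counts, 5 intervals lay above 0 and 1 below, beside 30.4% and 26.8% of all genes that deep. PPP1R15A (GADD34) and PPP1R15B, which direct the phosphatase to eIF2alpha, stood at 0.27 (interval 0.097 to 0.45) and 0.24 (interval 0.15 to 0.34). NCK1 stood at 0.40, and PPP1CA, a catalytic subunit, at -0.21 (interval -0.29 to -0.12). None of the 14 reached 0.5 in either direction.

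ATF4 and CHOP partners and stress targets went both ways. Of the 14 genes, 7 were higher and 7 lower in T-shMBD2, and the median was -0.0098. STC2, a secreted glycoprotein, had 802 counts in T-shMBD2 and 357 in T-shNC (log2 fold change 1.16, interval 0.98 to 1.34), and CEBPB, a dimer partner of ATF4 and CHOP, had 1860 and 1255 (0.56, interval 0.45 to 0.66). NUPR1, a stress-induced chromatin protein, had 38 counts in T-shMBD2 and 115 in T-shNC (-1.59, interval -2.18 to -1.07), and KLHL24 had 233 and 459 (-0.99, interval -1.22 to -0.76). The direction of this median depends on depth: over the 7 genes with at least 1000 counts it was 0.27.

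Amino acid transporters were mostly lower in T-shMBD2, on the same side as ASNS. Of 11 genes 10 were tested, SLC7A3 having no reads, and 9 had an interval wholly below 0, beside 18.4% of all genes tested. For SLC1A5, named after its value was seen, the upper bound was -0.00042, so whether its interval holds 0 depends on the scaling. The median was -0.26, and over the 7 genes with at least 1000 counts it was -0.14. Of these 7 intervals 6, with that of SLC1A5 among them, lay below 0, beside 26.8% of all genes that deep. SLC7A11, the cystine-glutamate exchanger, had 6523 counts in T-shMBD2 and 8519 in T-shNC (log2 fold change -0.39, interval -0.44 to -0.35). SLC38A2, a carrier of neutral amino acids, had 6403 and 8277 (-0.38, interval -0.43 to -0.33). SLC1A4 and SLC6A9 were at -0.53 (interval -0.73 to -0.33) and -0.60 (interval -1.04 to -0.18). SLC7A1, a carrier of cationic amino acids, was the exception at 0.12 (interval 0.026 to 0.22), and is named after its value was seen.

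Amino acid synthesis showed no common direction, with 6 of 13 genes higher, 7 lower and a median of -0.035. PHGDH, the first enzyme of serine synthesis, had 583 counts in T-shMBD2 and 768 in T-shNC (log2 fold change -0.41, interval -0.56 to -0.25). GOT1, an aspartate aminotransferase, had 598 and 838 (-0.50, interval -0.65 to -0.34). BCAT1, a branched-chain aminotransferase, had 267 and 95 (1.48, interval 1.14 to 1.84), and GPT2 stood at 0.30 (interval 0.082 to 0.53). Of the 20 cytosolic aminoacyl-tRNA synthetases, 13 were higher and 7 lower, with a median of 0.090. The interval lay above 0 in 11 and below 0 in 2. All 20 had at least 1000 counts summed over both libraries, where 30.4% and 26.8% of all genes that deep had such intervals. AARS, for alanine, had 4182 and 5098 counts (-0.29, interval -0.35 to -0.24), while FARSA, WARS and HARS stood at 0.43, 0.31 and 0.26.

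The 10 paralogs listed for these genes had a median of 0.17, with 7 higher and 3 lower in T-shMBD2. TRIB1 had 887 counts in T-shMBD2 and 501 in T-shNC (log2 fold change 0.81, interval 0.66 to 0.98) and TRIB2 had 68 and 31 (1.11, interval 0.49 to 1.79), while the interval of TRIB3 held 0. HSPA8, the constitutive cytosolic Hsp70, stood at 0.47 (interval 0.44 to 0.49) beside 0.36 for HSPA5, and the mitochondrial HSPA9 at 0.13 (interval 0.090 to 0.16). HERPUD2 stood at -0.20 (interval -0.41 to -0.00036), on the same side as HERPUD1, but whether its interval holds 0 depends on the scaling. The intervals of CHAC2 (-0.045), SESN1 (0.26), SESN3 (-0.042), ASNSD1 (0.14) and ATF5 (0.20) held 0. Pseudogenes of ASNS, ATF4 and XBP1 had at most 6 counts each, the highest being XBP1P1 with 6 in T-shMBD2 and 0 in T-shNC.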

How the data were processed

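RNA-seq of TFK1 cells with T-shMBD2 or T-shNC was analyzed, with 1 library per condition. The authors deposited whole-number read counts per gene and TPM values for each gene. The submitters' processing notes name fastp, HISAT2 2.1.0, featureCounts, DESeq 1.18.1 and GRCh38.p13, without their roles. The strand setting is not given in the sources used here. Gene positions in the tables name no build and differ from GENCODE 29 (GRCh38), which was used for the coordinates given, joined by Ensembl identifier.

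Of 63723 lines, 46 held no gene and were dropped. Rows that repeat a symbol were reduced to 1 per symbol, after which TPM summed to 1000000 in each library. Counts were scaled by TMM (edgeR 4.0.16, R 4.3.3), and 0.5 counts, in proportion to library size, were added before taking log2 fold changes. The 95% intervals are exact Clopper-Pearson (ratios) or Poisson (levels) intervals from scipy 1.17.1. A library with 3 counts or fewer was treated as being at the floor.

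The 10 genes and the 12 lists were chosen with earlier results of these data known. The genes named were MBD2, the 10 genes, their pseudogenes and paralogs, and genes whose exons overlap theirs. In each list they were also the 4 genes with the largest absolute log2 fold change among those with at least 100 counts in the higher library, plus any past 1 or -1. Exceptions are stated. The subset with at least 1000 counts was added after the data were seen. Simulated counts served to test the scripts. The alternatives were DESeq2 1.42.0 size factors, total counts, upper-quartile factors, priors of 2 and 0.1, log2 of TPM plus 0.1 or 1, all deposited rows, and filters of 1 and 100 counts.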

Additional observations from a re-analysis of the deposited data

How the results depend on the processing

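The values of the 10 genes under 8 alternative settings (80 values in all) all lay within the counting intervals and kept their direction. Every setting reuses the same 2 libraries, so this does not show whether a difference would recur between cultures. HSPA5 ranged from 0.33 to 0.38, ASNS from -0.50 to -0.45, and the median of the 10 genes from -0.16 to -0.12. The count of the 10 genes at or below -0.5 went from 1 to 0 with a prior count of 2 and with log2 of TPM plus 1, both of which pull the low count of CHAC1 toward 0. Of 108 values for the list medians, 107 lay between the medians of the genes' lower and upper interval bounds. The exception, ATF4 and CHOP partners and stress targets, went from -0.0098 to 0.27 over genes with at least 1000 counts, and ranged from -0.037 upward. Counts over all genes moved with the filter. At or above 1 and at or below -1 lay 4523 and 4303 genes with at least 1 count, 213 and 127 with at least 100 counts, and 374 and 340 with log2 of TPM plus 1. At 0.5 and -0.5 these were 6360 and 6286, then 763 and 712, and 1409 genes at or above 0.5 with TPM plus 1. No paired analysis was possible because only 1 library was sequenced per condition, and for the same reason no library could be left out. Depth limits DDIT3 and CHAC1, with at most 40 counts in a library.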

Other observations

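Heat shock proteins of the cytosol and mitochondria, which refold proteins outside the ER, were mostly higher in T-shMBD2, with 10 of 12 genes above 0 and a median log2 fold change of 0.13. The interval lay above 0 in 7 and below 0 in 2. Among the 10 with at least 1000 counts it lay above 0 in 6 and below in 2, beside 30.4% and 26.8% of all genes that deep. HSP90AA1 had 46275 counts in T-shMBD2 and 37983 in T-shNC (log2 fold change 0.28, interval 0.26 to 0.30), and the co-chaperone HSPH1 had 3994 and 3291 (0.27, interval 0.20 to 0.34). HSPA4 stood at 0.25 (interval 0.19 to 0.30). HSPA1A and HSPA1B, near-identical copies that can share reads and are named after their values were seen, stood at 0.19 and -0.17, and their split is uncertain.

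Amino acid sensing upstream of mTORC1, where SESN2 acts, had 14 of 22 genes higher and 8 lower in T-shMBD2, with a median of 0.067. The interval lay above 0 in 5 and below 0 in 2, beside 19.7% and 18.4% of all genes tested, so the share above 0 was near the background. Within the GATOR1 complex, which holds back mTORC1, NPRL2 had 159 counts in T-shMBD2 and 119 in T-shNC (log2 fold change 0.41, interval 0.057 to 0.76), while DEPDC5 had 184 and 239 (-0.39, interval -0.67 to -0.10). Of the Ragulator subunits, LAMTOR1 stood at 0.31 (interval 0.14 to 0.48) and LAMTOR4 at -0.28 (interval -0.47 to -0.081).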
